A study of Mus musculus with 156 samples.

Results

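The 8 genes described here, *Cebpa*, *Cebpb*, *Cebpd*, *Cebpg*, *Ddit3*, *Trib3*, *Chac1* and *Asns*, code for C/EBP transcription factors and for regulators and enzymes of the amino acid stress response, and were taken by name from the annotation of the array. They are represented by 16 of the 45279 probes tested, or 8 of the 19057 genes with a probe of 1 symbol. Where a gene has several probes they are numbered by mean signal, so that *Ddit3* 1 is brighter than *Ddit3* 2.

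The study followed gene expression in the mouse striatum (rostral caudate putamen with nucleus accumbens) at 1, 2, 4 and 8 h after a single intraperitoneal injection of a psychotropic drug. The samples comprised 156 Illumina MouseWG-6 arrays of male C57BL/6J mice, each hybridised with RNA pooled from 2 animals, with 3 arrays for each drug and time. The antidepressants were mianserin, tranylcypromine and bupropion at 20 mg/kg each. The antipsychotics were risperidone at 0.5 mg/kg, haloperidol at 1 mg/kg and clozapine at 3 mg/kg. The anxiolytics were diazepam at 5 mg/kg and buspirone and hydroxyzine at 10 mg/kg each. Vehicle mice received saline or 1% Tween 80, the agent in which risperidone, haloperidol, clozapine and diazepam were suspended, and naive mice received no injection. The antidepressants and antipsychotics shared a first set of 18 chips with 3 saline, 3 Tween 80 and 3 naive arrays at each time, and the anxiolytics shared a second set of 8 chips with 3 other saline arrays at each time. Diazepam therefore had no Tween 80 arrays on its chips, and its difference from saline includes that of the suspending agent.

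Values are log2 signals after quantile normalization over all arrays, and a difference of 1 is a doubling. Every change below is the drug mean minus the mean of same-time vehicle arrays on the same chip set, with saline and Tween 80 weighted equally in the first set. A probe was called for a drug where the limma F test over the 4 times gave an adjusted p under 0.05, adjusted over all probes. Adjusted p at a single time comes from the same limma fit.

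C/EBP proteins are basic leucine zipper transcription factors that bind DNA as dimers. C/EBPβ (*Cebpb*) and C/EBPδ (*Cebpd*) are induced by cytokines, hormones and cyclic AMP, C/EBPα (*Cebpa*) is best known from differentiating liver, fat and myeloid cells, and C/EBPγ (*Cebpg*) acts mainly as a dimer partner. When amino acids are scarce or unfolded proteins accumulate, kinases phosphorylate the initiation factor eIF2α, and the transcription factor ATF4 is translated. ATF4 binds with C/EBP partners to composite response elements and raises *Ddit3* (CHOP, a C/EBP relative that blocks partner factors), *Trib3* (a pseudokinase that feeds back on ATF4), *Chac1* (an enzyme that degrades glutathione) and *Asns* (asparagine synthetase).

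The promoters of *Cebpb*, *Chac1* and *Asns* are shown because the first 2 genes carry the drug responses described below and the third is the classical target with a response element near its start. Each line gives the 250 bases before the RefSeq start of the gene in the mouse build GRCm38.p6, 5′ to 3′ on the coding strand, with capitals marking TGATGNAA or TGACG on either strand. *Cebpb* lies at chr2:167688915-167690432 on the plus strand and the bases shown are chr2:167688665-167688914. *Chac1* lies at chr2:119351242-119354326 on the plus strand and the bases shown are chr2:119350992-119351241. *Asns* lies at chr6:7675165-7693209 on the minus strand and the bases shown are chr6:7693210-7693459.
Cebpb: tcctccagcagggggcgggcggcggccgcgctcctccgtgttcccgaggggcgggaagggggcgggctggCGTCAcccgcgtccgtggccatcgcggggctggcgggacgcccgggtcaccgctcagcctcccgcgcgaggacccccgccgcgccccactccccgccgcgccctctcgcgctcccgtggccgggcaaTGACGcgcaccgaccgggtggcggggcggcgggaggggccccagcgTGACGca
Chac1: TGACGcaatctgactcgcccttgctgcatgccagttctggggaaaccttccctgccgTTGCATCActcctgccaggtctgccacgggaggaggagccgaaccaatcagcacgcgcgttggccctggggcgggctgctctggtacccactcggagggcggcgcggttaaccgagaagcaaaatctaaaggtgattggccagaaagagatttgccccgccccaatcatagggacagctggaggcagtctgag
Asns: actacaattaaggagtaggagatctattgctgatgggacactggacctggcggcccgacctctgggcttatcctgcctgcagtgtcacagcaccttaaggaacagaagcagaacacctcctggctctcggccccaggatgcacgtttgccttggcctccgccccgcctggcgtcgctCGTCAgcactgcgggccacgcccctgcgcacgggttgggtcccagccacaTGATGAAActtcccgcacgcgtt
The composite C/EBP-ATF element TGATGNAA was present in the window from 250 bases before to 50 after the start in *Chac1* (positions -193 to -186, opposite strand), *Asns* (-23 to -16, coding strand) and *Trib3* (15 to 22, opposite strand), which is 3 of the 7 members with a promoter entry, and in 3.97% of 32851 mouse promoters. The full cyclic AMP response element TGACGTCA was in 1.79% of promoters and in 0 of the 7 members, whereas its core TGACG, which is part of TGACGTCA, was in 20.8% of promoters and in 4 members. The *Cebpb* window held 3 such cores, at -180 to -176 (opposite strand), -53 to -49 and -7 to -3. The C/EBP palindrome TTGCGCAA was in 0.183% of promoters and in 0 of the 7 members. *Cebpd* had no entry.

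All 8 genes had at least 1 probe above the background of the platform, taken as the 95th percentile (8.00) of 1506 odorant and vomeronasal receptor probes, which have little expression in striatum. The 4 probes not above it were *Cebpd* 2, *Cebpg* 3, *Trib3* 2 and *Trib3* 3, and the only *Cebpa* probe lay just above it (mean 8.01, arrays from 7.64). Of 10 listed markers of striatal medium spiny neurons 7 were measured, among them *Ppp1r1b* (15.19) and *Drd2* (11.48), and all 7 were above this background. Of 3 cortical excitatory markers measured (4 listed), *Slc17a7* (11.7) and *Tbr1* (9.58) were above this background and *Neurod6* (7.84) was not. The array medians before normalization were 7.67 to 9.21 in the first chip set and 6.92 to 8.63 in the second.

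One chip of the second set stood apart. Its 6 arrays (diazepam 2 h replicate 1, diazepam 8 h replicate 3, buspirone 4 h replicate 2, hydroxyzine 2 h replicate 2, saline 1 h replicate 4 and saline 4 h replicate 6) had median correlations of 0.953 to 0.967 with the rest of the set, whose own values were 0.973 to 0.986. On this chip all 6 arrays lay below all 42 others of the set for *Cebpd* 1 (7.61 to 8.18 against 8.24 to 9.19), *Ddit3* 2 (8.15 to 8.91 against 9.40 to 10.4), *Asns* 1 (11.2 to 11.7 against 12.5 to 13.5) and *Asns* 2. Its *Ddit3* 1 signals (11.53 to 12.01) were above all others in 5 of 6 arrays. Its *Cebpb* signals (10.1 to 10.4) lay within the range of the others. Several results of the second set are therefore given with and without this chip. The drug pairs, the residual SD and the separations of groups include it.

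*Cebpb* was the member with the clearest drug response, and it rose after mianserin, tranylcypromine and, close to the threshold, risperidone. By the F test the members called numbered 2 of 16 probes for tranylcypromine (*Cebpb* and *Chac1*), 1 for mianserin (*Cebpb*) and 1 for risperidone (*Cebpb*), where the percentages of all probes called were 1.59%, 3.26% and 1.22%. For bupropion, haloperidol and clozapine 0 members were called (0%, 0.13% and 0.0508% of all probes), with 0, 1 and 0 member probes at an unadjusted p under 0.05 in limma (4.43%, 6.82% and 4.45% of all probes). The median size of the change over the members was 0.093 for tranylcypromine and 0.092 for mianserin, against 0.077 and 0.079 over all probes.

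In the first chip set the 3 *Cebpb* signals after mianserin were 10.25, 10.26 and 10.62 at 1 h, 10.38, 10.62 and 10.67 at 2 h, 10.95, 11.02 and 10.91 at 4 h, and 11.33, 10.30 and 10.23 at 8 h. The same-time vehicle arrays, saline first and then Tween 80, read 10.02, 10.02, 10.08, 9.76, 9.87 and 9.98 at 1 h, 9.73, 9.79, 10.18, 9.70, 10.05 and 10.05 at 2 h, 9.66, 9.94, 10.12, 10.11, 10.12 and 10.20 at 4 h, and 9.88, 9.98, 10.01, 9.96, 9.99 and 10.18 at 8 h. Every mianserin array was above every vehicle array of its time, as for 1.01%, 2.01%, 3.08% and 3.08% of all probes at the 4 times. The vehicle arrays stayed within 9.66 and 10.20 over the times, and the naive arrays within 9.50 and 10.17.

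The change after mianserin was 0.42, 0.64, 0.93 and 0.62 at 1, 2, 4 and 8 h, each with a standard error of 0.17. At 4 h the mean was 10.96 ± 0.05 after mianserin (SD, n = 3) and 10.03 ± 0.20 after vehicle (n = 6), a 1.91-fold level. The adjusted p of limma was 7.06e-07 over the 4 times and 0.964, 0.0714, 0.000238 and 0.0455 at the single times. The 8 h value rests on replicate 1, without which the change was 0.26 with an adjusted p of 0.663, although the other 2 arrays were still above all vehicle arrays. The 8 h call was also lost without any 1 saline or Tween 80 replicate (changes of 0.60 to 0.66, adjusted p up to 0.0966), whereas the 4 h call held in all 20 alternatives. Median scaling (0.52, adjusted p = 0.499), saline alone as vehicle (0.66, 0.122) and the replicate block (0.62, 0.0501) ended the 8 h call too. The 4 times did not differ detectably from each other (adjusted p = 0.776). Only 1 pair of mianserin and same-time vehicle arrays shared a chip, with a difference of 0.393.

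After tranylcypromine, an inhibitor of monoamine oxidase, *Cebpb* was already raised at 1 h. The 3 arrays read 10.59, 10.87 and 10.78 at 1 h, 10.40, 11.02 and 10.74 at 2 h, 10.40, 10.68 and 10.95 at 4 h, and 10.44, 11.76 and 10.24 at 8 h, and all 12 were above the vehicle arrays of their time listed for mianserin, as for 1.28%, 1.62%, 2.12% and 3.06% of all probes at the 4 times. The changes were 0.79, 0.80, 0.65 and 0.82 (standard error 0.17 each). At 1 h this was a 1.73-fold level, with means of 10.74 ± 0.14 after tranylcypromine (SD, n = 3) and 9.96 ± 0.12 after vehicle (n = 6). The adjusted p of limma was 1.2e-08 over the 4 times, 0.993 between the times, and 0.0179, 0.0112, 0.0655 and 0.00245 at the single times. The 8 h value rests on replicate 2, without which the change was 0.34 with an adjusted p of 0.472. The 1 h call was lost without tranylcypromine replicate 2 or 3, saline replicate 2 or Tween 80 replicate 1 or 2 (change at least 0.73, adjusted p up to 0.118), and the 2 h call without tranylcypromine replicate 2 or 3, saline replicate 2 or Tween 80 replicate 2 (at least 0.65, up to 0.134). Both calls were also lost with saline, the drug's own vehicle, alone (0.71 with an adjusted p of 0.184, and 0.82 with 0.0625). Median scaling ended the calls at 1, 2 and 8 h (adjusted p = 0.432, 0.544 and 0.271). Without the 8 h array of replicate 2 the F test over the 4 times gave 1.2e-08 too.

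After risperidone *Cebpb* was above vehicle in all 9 arrays of the first 3 times and overlapped it at 8 h, where 0.981%, 1.47% and 3.37% of all probes were wholly above vehicle at 1, 2 and 4 h. The arrays read 10.28, 10.28 and 10.41 at 1 h, 10.45, 10.38 and 10.61 at 2 h, 10.47, 10.28 and 10.67 at 4 h, and 9.93, 9.70 and 10.26 at 8 h. The changes were 0.37, 0.56, 0.45 and -0.04, and the adjusted p of limma was 0.0497 over the 4 times and 0.203 at its lowest single time (2 h). Leaving out any 1 of the 3 risperidone replicates, saline replicate 2 or 3 or any 1 of the 3 Tween 80 replicates, at all times together, ended this call (change at 2 h of 0.50 to 0.61, adjusted p = 0.0661 to 0.463). Bupropion (changes of -0.18 to 0.03), haloperidol (0.02 to 0.17) and clozapine (-0.09 to 0.24) overlapped the vehicle arrays at every time.

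**Figure D1:**
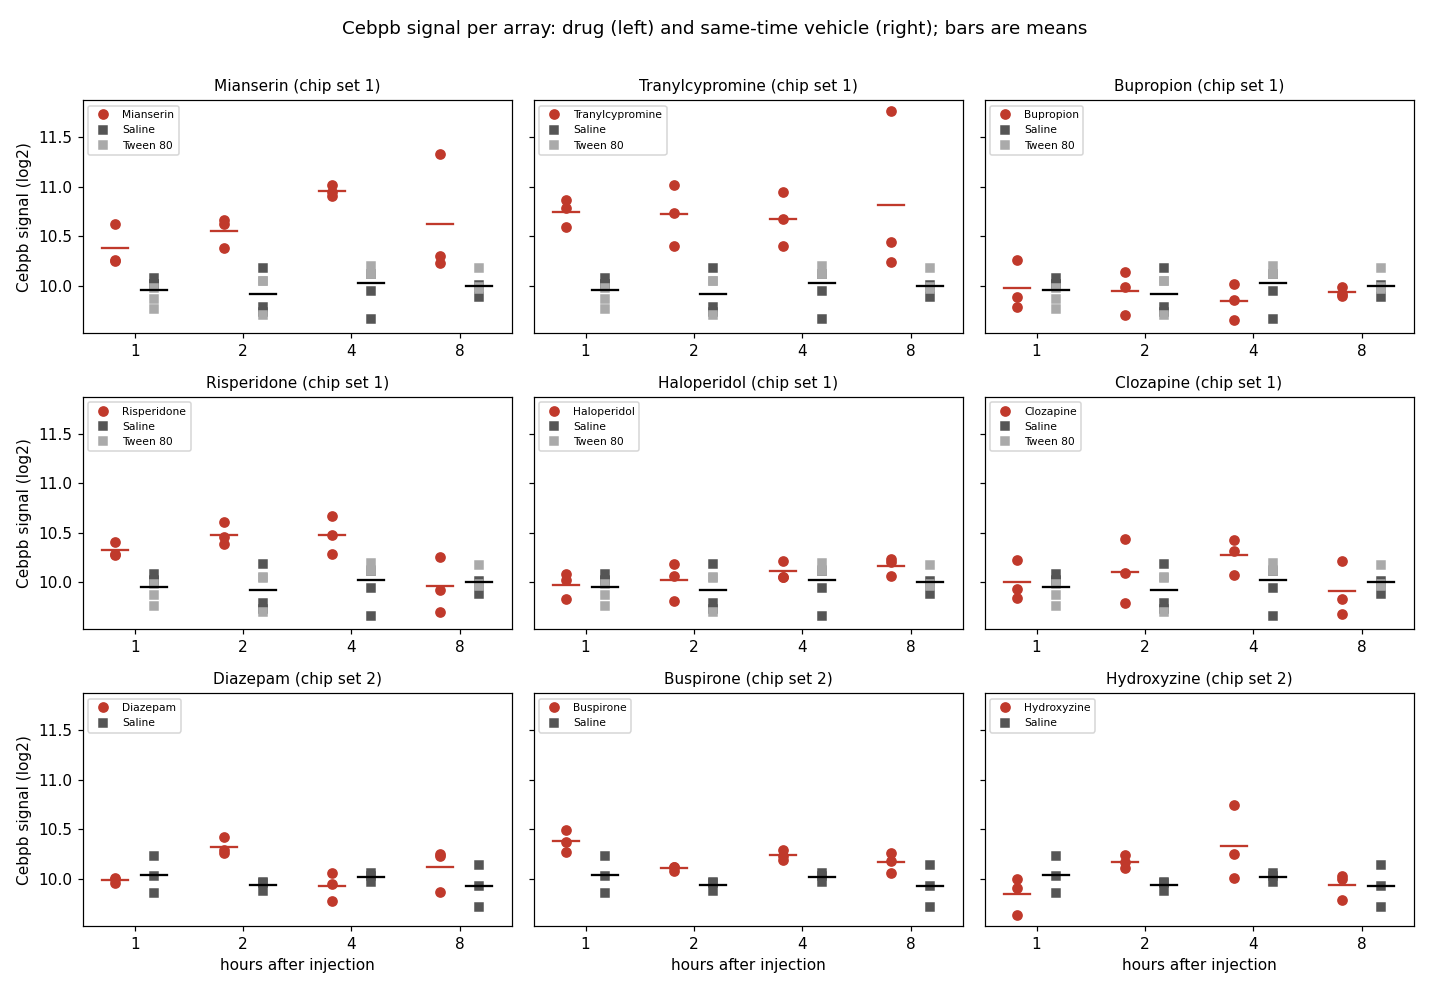
*Cebpb* log2 signal (vertical axis) of every drug array and, to its right, every same-time vehicle array, against hours after injection (horizontal axis), with 1 panel per drug and bars at the means. All 12 mianserin and all 12 tranylcypromine arrays lie above the vehicle arrays of their time, and the highest single values are tranylcypromine 8 h replicate 2 (11.76) and mianserin 8 h replicate 1 (11.33).

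Within the first chip set the drugs were also compared with each other, over 15 pairs with p adjusted over all probes in each pair. *Cebpb* differed in 7 pairs, of which only that of mianserin and bupropion kept its call under median scaling. Mianserin was above bupropion by up to 1.11 (4 h, adjusted p = 4.2e-06 over the times in limma, 1.55% of all probes called), above haloperidol by up to 0.85 (4 h, 0.00161, 1.2% called) and above clozapine by up to 0.71 (8 h, 0.00485, 0.459% called, or 0.36 without mianserin 8 h replicate 1 with an adjusted p of 0.0399). The call against clozapine was lost without mianserin replicate 1 at all times (0.0803) or clozapine replicate 2 (0.361). Tranylcypromine was above bupropion by up to 0.88 (8 h, 4.18e-07, 0.939% called), above haloperidol by up to 0.77 (1 h, 0.00014, 0.479% called) and above clozapine by up to 0.91 (8 h, 5.36e-05, 0.676% called). It was above risperidone by up to 0.86 (8 h, 0.0255, 0.978% called). Without tranylcypromine 8 h replicate 2 the 8 h differences from bupropion, clozapine and risperidone were 0.41, 0.44 and 0.38, and of the 4 called tranylcypromine pairs only that with risperidone lost its call (adjusted p = 0.398). This pair also lost it without risperidone replicate 1 or 2 (0.158 and 0.343). Mianserin and tranylcypromine were not shown to differ in *Cebpb* (adjusted p = 0.623), nor were risperidone and bupropion (0.112).

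The other C/EBP genes showed little movement. *Cebpa* changed by -0.15 to 0.18 over the 6 drugs and 4 times of the first set. *Cebpd* 1 changed most after haloperidol at 1 h (0.21) and tranylcypromine at 8 h (0.19, arrays 9.22, 9.33 and 9.28), and overlapped vehicle both times. *Cebpg* 1 was higher at 8 h after tranylcypromine, with 10.54, 10.43 and 10.05 against 9.55, 9.65 and 10.03 after saline and 9.82, 9.87 and 10.06 after Tween 80. The lowest tranylcypromine array lay just below the highest Tween 80 array. The change was 0.51 ± 0.14 (SE, adjusted p = 0.0355 in limma), and 0.47 without replicate 2 (0.206). The call was also lost without tranylcypromine replicate 1 (0.41, 0.291), saline replicate 1 or 2 or Tween 80 replicate 1 or 2, and with chip as a fixed block (0.33, 0.288). Over the 4 times *Cebpg* 1 was not called (0.176). The other probes of the gene did not follow it. Over the 24 drug and time combinations of the first set its change had the same sign as that of *Cebpg* 2 in 12 and of *Cebpg* 3 in 11. Over the 108 arrays its signal correlated with theirs at r = 0.15 and -0.26.

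*Ddit3* was also higher 8 h after tranylcypromine, by its brighter probe. *Ddit3* 1 read 11.04, 10.55 and 10.58 after tranylcypromine, against 9.95, 10.02 and 10.37 after saline and 10.00, 10.13 and 10.42 after Tween 80, with no overlap, as for 3.06% of all probes. The change was 0.58 ± 0.16 (SE, adjusted p = 0.0426 in limma), 0.66 without replicate 2 (0.0756), and the F test missed the threshold (0.0568). The 8 h call was lost without each other replicate of the drug and the vehicles but saline replicate 3 and Tween 80 replicate 1 (0.42 without tranylcypromine replicate 1, 0.356), and with chip as a fixed (0.25, 0.693) or random block (0.49, 0.0700). *Ddit3* 2 gave 0.29 at the same time, with overlap. At 8 h after mianserin *Ddit3* 2 read 10.42, 10.46 and 10.23, against 9.55, 9.59 and 10.09 after saline and 9.79, 10.03 and 10.05 after Tween 80 (0.52 ± 0.18, adjusted p = 0.145), and *Ddit3* 1 gave 0.32. Over the 24 drug and time combinations of the first set the 2 probes had the same sign in 17, and over its 108 arrays their signals correlated at r = 0.67. In the second set the correlation was -0.48 over 48 arrays, and 0.18 over the 42 arrays off the chip that stood apart. These correlations are descriptions over arrays that share chips and conditions.

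**Figure D2:**
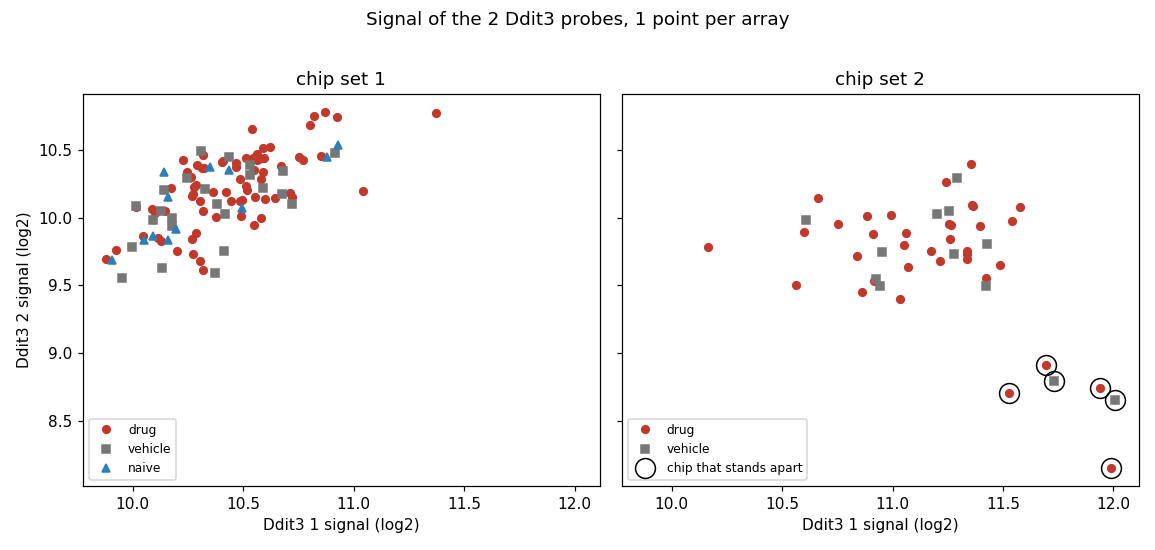
Log2 signal of *Ddit3* 1 (horizontal axis) and *Ddit3* 2 (vertical axis) of every array, with 1 panel per chip set, separate markers for drug, vehicle and naive arrays, and rings around the 6 arrays of the chip that stood apart. The 2 probes follow each other in the first set (r = 0.67), whereas the ringed arrays of the second set have high *Ddit3* 1 and low *Ddit3* 2.

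*Trib3* changed by -0.16 to 0.21 with its brightest probe in the first set. Of the dim probes, *Trib3* 2 was below all vehicle arrays at 4 h after risperidone (7.91, 7.93 and 7.71, a change of -0.28 with an adjusted p of 0.0789), as for 2.92% of all probes, at a signal not above background.

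*Chac1* was called after tranylcypromine, with its largest change at 8 h, which rests on 1 array. The 3 arrays read 11.03, 12.06 and 10.67, against 10.48, 10.51 and 10.57 after saline and 10.56, 10.66 and 10.71 after Tween 80. Replicate 2 was far above the others and replicate 3 lay within the vehicle range. The change was 0.67 ± 0.15 (SE, adjusted p = 0.00332 at 8 h and 0.0109 over the 4 times in limma). Without replicate 2 it was 0.27, with adjusted p of 0.520 and 0.446. At 1, 2 and 4 h the changes were 0.11, 0.32 and 0.07, so that without replicate 2 the 8 h change was not the largest. The interaction of drug and time in the first set was not called for *Chac1* (adjusted p = 0.972 in limma). After mianserin *Chac1* gave changes of 0.06, -0.21, -0.17 and 0.04, and at 2 h its 3 arrays (10.16, 10.33 and 10.38) lay below all 6 vehicle arrays, as for 2.23% of all probes (adjusted p = 0.717). The difference between mianserin and tranylcypromine was -0.63 at 8 h (adjusted p = 0.0107 over the times, 2.42% of all probes called) and that between tranylcypromine and bupropion was 0.88 (0.00143). Both calls were lost without tranylcypromine 8 h replicate 2 (-0.23 and 0.47, adjusted p = 0.104 and 0.134), the first also without mianserin 8 h replicate 1 (-0.54, 0.0592) and with chip as a fixed block (-0.47, 0.0591), and the second without bupropion replicate 3 (0.75, 0.117). Under median scaling *Chac1* lost its calls after tranylcypromine at 8 h (0.40, adjusted p = 0.369) and over the 4 times (0.692), and in both pairs (0.403 and 0.251). No other member was called in any of the 15 pairs.

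*Asns* did not follow. Its brightest probe changed by -0.10 to 0.15 in the first set, and its 3 probes there correlated with each other at -0.05 to 0.23. *Asns* 2 was below vehicle at 4 h after risperidone, with 10.87, 10.81 and 10.91 against vehicle arrays of 11.05 to 11.18, a separation found for 2.92% of all probes (-0.26 ± 0.10 SE, adjusted p = 0.224 in limma). Its naive arrays read 11.11 to 11.39, and the vehicle minus naive difference was -0.18, -0.18, -0.07 and -0.18 over the times, with an unadjusted p of 0.0332 and an adjusted p of 0.999971.

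**Figure D3:**
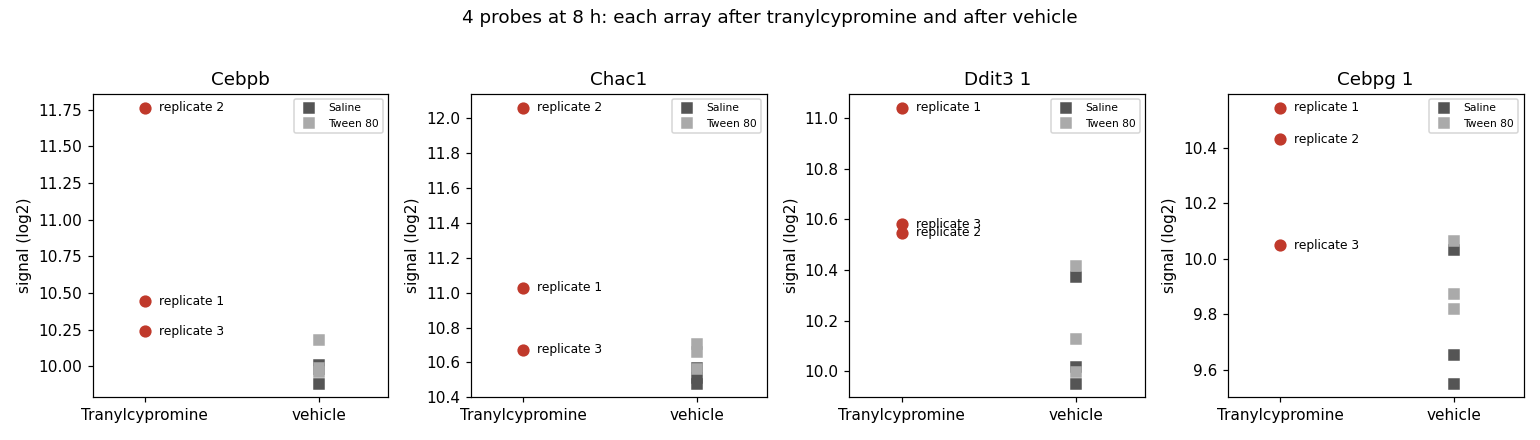
Log2 signal (vertical axis) of *Cebpb*, *Chac1*, *Ddit3* 1 and *Cebpg* 1 at 8 h in each tranylcypromine array, named by replicate, and in each saline and Tween 80 array. *Cebpb* (11.76) and *Chac1* (12.06) are highest in tranylcypromine replicate 2, and *Ddit3* 1 lies above all vehicle arrays in all 3 tranylcypromine arrays.

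At single times, after tranylcypromine the members called in limma were 1 at 1 h, 1 at 2 h, 0 at 4 h and 4 at 8 h (*Cebpb*, *Chac1*, *Ddit3* 1 and *Cebpg* 1), where 0.126%, 0.197%, 0.448% and 1.53% of all probes were called. After mianserin 0 members were called at 1 h and 2 h (0% and 0.479% of all probes), and *Cebpb* at 4 h and 8 h (1.31% and 1.34%). Each 8 h call for tranylcypromine was lost without replicate 2, where the change was 0.34 for *Cebpb*, 0.27 for *Chac1*, 0.66 for *Ddit3* 1 and 0.47 for *Cebpg* 1. That array also had the lowest median correlation with the other arrays of its set (0.983). Of the glial and endothelial markers listed, 2 of 4 microglial, 1 of 3 oligodendrocyte and 1 of 4 endothelial markers fell over the 4 times after tranylcypromine, 1 of 4 microglial markers after mianserin and 1 of 4 endothelial markers after risperidone by the F test in limma, where 0.373%, 1.55% and 0.466% of all probes were called with the largest change downward. None of the 4 astrocyte markers was called after these 3 drugs. At 8 h the 4 microglial markers had a summed log2 signal of 39.4 to 41.2 after tranylcypromine and 40.0 to 40.6 after mianserin. It was 41.7 to 41.8 after risperidone, against 42.2 to 43.3 after vehicle. That of 3 oligodendrocyte markers (of 4 listed) was 37.0 to 38.6 after tranylcypromine and 38.2 to 39.1 after risperidone, against 39.2 to 39.9. After mianserin it was 39.4 to 40.1. At 4 h the microglial sum was 40.9 to 41.4 after tranylcypromine, 41.2 to 41.5 after risperidone and 41.0 to 42.6 after mianserin, against 41.9 to 43.3. How often other sets of probes separate in this way was not computed. At 4 h the 4 endothelial markers summed to 40.2 to 41.0 after tranylcypromine, 41.0 to 41.3 after risperidone and 41.6 to 42.2 after mianserin, against 42.2 to 42.9. At 8 h their sum after tranylcypromine (41.4 to 43.0) overlapped that after vehicle (41.5 to 42.2). Of 7 medium spiny neuron markers measured, 1 rose after mianserin, where 1.71% of all probes were called with the largest change upward. Their part in the member changes was not tested, and in bulk tissue fewer cells of a type and less RNA per cell cannot be told apart.

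**Figure D4:**
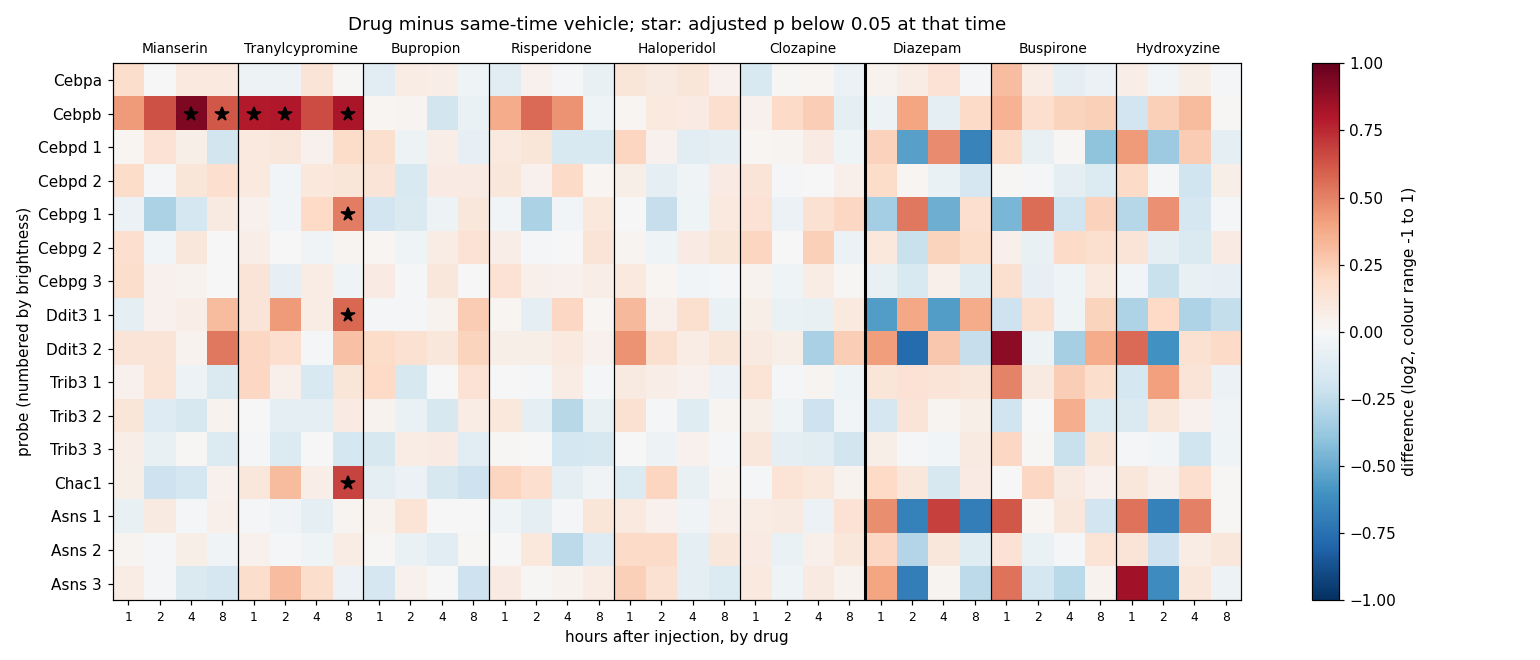
Change in log2 signal against same-time vehicle (colour) of the 16 member probes (rows) for each drug and hour after injection (columns), with a star where the adjusted p of that time was below 0.05. *Cebpb* has positive changes at all 4 times after mianserin (0.42 to 0.93, stars at 4 and 8 h) and tranylcypromine (0.65 to 0.82, stars at 1, 2 and 8 h), and of the large values in the anxiolytic columns that of *Asns* 1 at 8 h after diazepam (-0.69) was -0.35 without the chip that stood apart.

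With drug and time as factors in the first set, naive included as a level, the effect of drug was called for *Cebpb* (adjusted p = 2.43e-14), *Chac1* (0.00913) and *Asns* 2 (0.0489), where 4.32% of all probes were called. Without tranylcypromine 8 h replicate 2 *Chac1* was lost (0.0589) and *Asns* 2 kept its call (0.0407). The interaction of drug and time was called for 0 members (lowest adjusted p 0.811, 0.417% of probes). Vehicle minus naive and Tween 80 minus saline were called for 0 members and 0% of probes, and time within vehicle for 0 members (0.583% of probes), with 2, 1 and 2 member probes at an unadjusted p under 0.05 in limma (3.28%, 5.06% and 9.64% of all probes). The largest Tween 80 minus saline difference of *Ddit3* 1 was 0.52, at 2 h (unadjusted p = 0.0455 over the times, adjusted 0.961).

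In the second chip set 0 members were called for diazepam, buspirone or hydroxyzine, where 0.00221%, 0.00442% and 0% of all probes were called. In 1 fit of both chip sets with shared spread 4 members were called for diazepam (*Cebpd* 1, *Cebpg* 1, *Ddit3* 1 and *Asns* 1), where 14.7% of all probes were, and 0 without the chip that stood apart (0.886% of all probes). Member probes at an unadjusted p under 0.05 in limma numbered 4, 3 and 0 (13.1%, 3.96% and 4.92% of all probes). Without the chip that stood apart they numbered 0, 3 and 0. The share of all probes was not computed for that fit, so these numbers have no background to be read against. In the 3 drug pairs 0 members were called, where 0.0133% (diazepam and buspirone), 0% (diazepam and hydroxyzine) and 0.00221% (buspirone and hydroxyzine) of all probes were. With the chip that stood apart included, the residual SD of *Asns* 1 was 0.534 there and 0.128 in the first set. That of *Cebpb* was 0.155 and 0.254.

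*Cebpb* did not pass the test after buspirone. It read 10.49, 10.37 and 10.27 at 1 h, 10.07, 10.12 and 10.12 at 2 h and 10.29, 10.22 and 10.19 at 4 h, against saline arrays of 9.85, 10.03 and 10.23, 9.88, 9.96 and 9.97, and 9.97, 10.02 and 10.05. The groups did not overlap at those 3 times. Such separation above vehicle was found in 6.28%, 4.32% and 3.92% of all probes. The changes were 0.34, 0.17, 0.22 and 0.24 at the 4 times (unadjusted p = 0.0375, adjusted 0.99979 in limma) and 0.44, 0.17, 0.24 and 0.24 without the chip (unadjusted p = 0.0263, with a lowest adjusted p over the members of 0.999995). On the chips that held both, buspirone was above same-time saline in 8 of 8 pairs of arrays, by 0.104 to 0.521 (median 0.249). The pair with buspirone 4 h replicate 2 (0.171) was on the chip that stood apart. In the first set bupropion was above same-time vehicle in 6 of 10 such pairs, clozapine in 1 of 2, and mianserin and risperidone in 1 of 1 each. The share of all probes with such a result was not computed. *Cebpb* was also wholly above saline at 2 h after diazepam (10.42, 10.26 and 10.29) and hydroxyzine (10.24, 10.17 and 10.11), where 8.13% and 7.97% of all probes were. The diazepam array at 10.42 and the hydroxyzine array at 10.17 were on the chip that stood apart. *Trib3* 1 read 9.42, 9.10 and 8.74 at 1 h after buspirone, against 8.53, 8.55 and 8.71 after saline (0.49, adjusted p = 0.736, and 0.47 without the chip). *Ddit3* 2 was 0.90 above saline at that time, and 0.58 without the chip.

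Several of the larger differences of the second set, but not all, were smaller without the chip. *Asns* 1 read 12.66, 12.71 and 11.67 at 8 h after diazepam, against 12.99, 13.02 and 13.10 after saline, a change of -0.69 that became -0.35. At 1 h after buspirone its change of 0.62 became 0.14. *Ddit3* 2 at 2 h after diazepam changed by -0.77 with the chip and -0.52 without it, and *Cebpd* 1 at 8 h after diazepam by -0.67 and -0.43. The third *Asns* probe at 1 h after hydroxyzine read 8.27, 9.34 and 8.97, against 7.93, 8.05 and 8.08 after saline, a change of 0.84 that was 0.86 without the chip. None of these passed the test with or without the chip.

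The genes whose pattern was most like that of a member were found by Pearson correlation over the 36 condition means of the first set, which share arrays and chips, and the values are descriptions. For *Cebpb* they were *Zfp36* (r = 0.87), *Akap12* (0.86) and *Csrnp1* (0.86). For *Ddit3* they were *Rhot2* (0.84), *Irs2* (0.82) and *Jun* (0.79), and for *Cebpg* *Mtln* (0.81), *Nasp* (0.75) and *Myrip* (0.74). For *Chac1* they were *Slco1b2* (0.74), *Ptp4a1* (0.71) and *Med25* (0.71). *Asns* reached only 0.61 (*Scyl3*), 0.56 (*Sh3rf1*) and 0.55 (*Foxj3*). *Cebpd* was closest to *Msn* (0.71), *Tas2r114* (0.63) and *Olfr203* (0.63), *Trib3* to *Gm1604b* (0.70), *Col11a1* (0.64) and *Snrnp48* (0.63), and *Cebpa* to *Rnf152* (0.76), *Mapkbp1* (0.69) and *Cyp11b2* (0.65). Of these genes *Slco1b2*, *Scyl3*, *Sh3rf1*, *Tas2r114*, *Olfr203*, *Col11a1*, *Snrnp48* and the 3 of *Cebpa* were not above background. By Spearman's rho the 3 names for *Ddit3* stayed the same, 2 of 3 did for *Asns*, *Cebpd*, *Trib3* and *Cebpa*, 1 of 3 did for *Cebpb* and *Cebpg*, and 0 of 3 for *Chac1*.

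The other genes of the pathway moved in part. Of 34 measured genes of the ATF4 and amino acid list (36 listed), 6 rose and 0 fell after tranylcypromine, 2 rose and 2 fell after mianserin, and 2 rose and 1 fell after risperidone, by the F test on the brightest probe. Of all probes 1.21%, 1.71% and 0.758% were called with the largest change upward after these drugs, and 0.373%, 1.55% and 0.466% with the largest change downward. These shares cover dim and secondary probes too, whereas the list was read on brightest probes, 30 of 34 above background. The list and the shares are therefore not like for like, here and for the lists below. After each of the other 6 drugs 0 of the genes of any list did, and the genes of the ATF4 list with an unadjusted p under 0.05 in limma numbered 3 for bupropion, 4 for haloperidol, 4 for clozapine, 5 for diazepam, 5 for buspirone and 0 for hydroxyzine, where 4.43%, 6.82%, 4.45%, 13.1%, 3.96% and 4.92% of all probes were. The median change of the list was -0.03 to 0.09 over these 3 drugs and 4 times, with all probes within 0.007 of 0. *Ddit4* (REDD1, an inhibitor of mTOR signalling) had the largest changes, at 4 h, with 1.74 ± 0.20 after mianserin, 1.17 ± 0.20 after tranylcypromine and 1.59 ± 0.20 after risperidone (SE, adjusted p = 5.55e-14, 2.87e-05 and 1.96e-10 in limma). *Atf3*, a stress-induced relative of ATF4, rose after tranylcypromine by 0.85 ± 0.13 at 1 h (8.86e-10), with a mean signal over all arrays (8.03) just above background. *Ppp1r15a* (GADD34, which brings a phosphatase to eIF2α) rose by 0.50 after tranylcypromine at 2 h (0.0102) and 0.49 after mianserin at 4 h (0.0194). The *Ppp1r15a* call after tranylcypromine was lost without tranylcypromine replicate 2 or 3, saline replicate 2 or Tween 80 replicate 2 (adjusted p up to 0.115), and that after mianserin without mianserin replicate 2, saline replicate 2 or Tween 80 replicate 2 (up to 0.132).

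The other called genes of that list encode a transporter and enzymes. *Slc38a2*, a neutral amino acid transporter, rose by 0.45 at 8 h after tranylcypromine (adjusted p = 0.0412) and fell by 0.60 at 2 h after mianserin (0.000269). Leaving out any 1 drug or vehicle replicate other than Tween 80 replicate 2 ended the call after tranylcypromine (adjusted p up to 0.166). *Gpt2*, an alanine transaminase, rose by 0.45 at 4 h after tranylcypromine (0.00916), a call lost without tranylcypromine replicate 1 or 3 or saline replicate 3 (up to 0.272). *Eprs*, the glutamyl-prolyl-tRNA synthetase, rose by 0.46 at 8 h after tranylcypromine (0.000183). Without the 8 h array of replicate 2 its change was 0.27 (0.00238 over the times), and without replicate 2 at all times the call was lost (0.0734).

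*Cars*, the cysteinyl-tRNA synthetase, fell by 0.41 at 2 h after mianserin (adjusted p = 0.0181). This call was lost without mianserin replicate 1 or 3, saline replicate 3 or Tween 80 replicate 2 (up to 0.145). After risperidone *Cars* fell by 0.35 at 2 h and lay 0.35 above vehicle at 8 h (0.0240). That call was lost without risperidone replicate 2 (-0.19 at 2 h, 0.504) or 3, saline replicate 2 or 3 or Tween 80 replicate 2. *Psat1*, an enzyme of serine synthesis, rose by 0.44 at 2 h after risperidone (0.0445), and leaving out any 1 drug or vehicle replicate other than Tween 80 replicate 1 ended this call (up to 0.470).

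Of the unfolded protein response list, with 14 of 14 genes measured, 2 rose after tranylcypromine and 1 after mianserin, read against the same shares of all probes as the ATF4 list (1.21% and 1.71% upward). They were *Pdia4*, a chaperone and disulfide isomerase (0.66 at 8 h, adjusted p = 0.000323), *Creld2* (0.70 at 8 h, 9.25e-05), and *Herpud1*, which acts in endoplasmic reticulum degradation (0.44 at 4 h after mianserin, 0.0142, lost without mianserin replicate 1 or 3 or saline replicate 2 or 3, with adjusted p up to 0.201). At 8 h *Pdia4* and *Creld2* gave 0.80 and 0.65 without replicate 2, and *Pdia4* gave -0.22, -0.24 and -0.25 at the earlier times. For the next 3 lists these shares were the background too, with 0.373% and 1.55% downward after tranylcypromine and mianserin and 0.758% upward after risperidone. Of 9 eIF2 pathway genes measured (10 listed), *Ppp1r15a* (also in the ATF4 list) rose after tranylcypromine and mianserin, and *Nck1* fell after mianserin by 0.56 at 4 h (0.000532). Of 6 relatives of the members measured (8 listed), *Trib1* rose by 0.32 at 4 h (0.000794, or 0.0735 without tranylcypromine replicate 2) and *Trib2* by 1.08 at 8 h (4.73e-06) after tranylcypromine, and *Batf3* fell by 0.26 at 8 h after mianserin (0.0459). The *Batf3* call was lost without any 1 drug or vehicle replicate other than Tween 80 replicate 3 (adjusted p up to 0.245), and its mean signal (8.06) was just above background. Of 9 inflammatory C/EBP targets measured (10 listed), only 4 were above background, so the others could hardly show a change. *Socs3*, an inhibitor of cytokine signalling, rose by 0.92 at 8 h after tranylcypromine (6.07e-06), where the 8 h change was 0.26 without replicate 2. *Serpina3n*, an acute phase protease inhibitor, rose by 0.89 at 8 h after tranylcypromine (4.35e-06) and by 0.76 at 4 h after risperidone (0.00557, lost without risperidone replicate 1 or 2, with adjusted p up to 0.169). Under median scaling in place of quantile normalization 16 of the 23 calls of listed genes were lost.

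**Figure D5:**
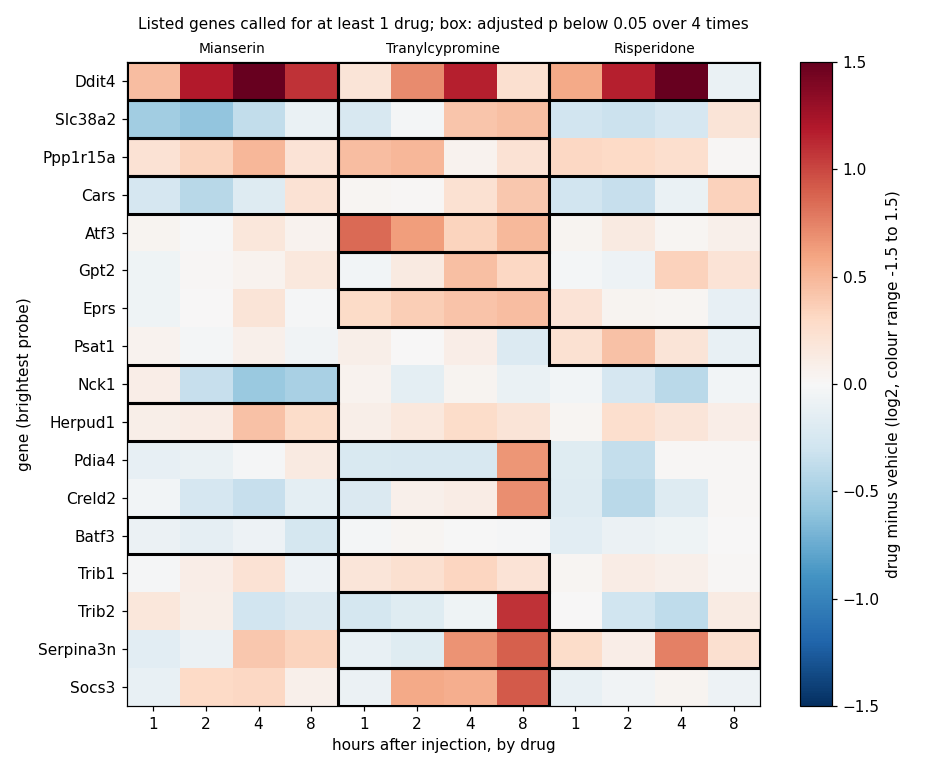
Change in log2 signal against same-time vehicle (colour, ending at 1.5 in either direction) of the listed genes called for at least 1 drug (rows), by hours after mianserin, tranylcypromine and risperidone (columns), with a box where the adjusted p over the 4 times was below 0.05. *Ddit4* is raised at 4 h after all 3 drugs (1.74, 1.17 and 1.59), and *Trib2* (1.08), *Socs3* (0.92) and *Serpina3n* (0.89) at 8 h after tranylcypromine.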

How the data were processed

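Striatal RNA of 2 pooled mice per array was hybridised to Illumina MouseWG-6 arrays, which were read out with BeadStudio. The authors deposited 2 tables of log2 intensity values for the 156 arrays, 1 not normalized and 1 quantile-normalized, and the z-scores of their methods are in neither. The table without normalization was used here. The table has 45281 probes, and 2 that lack a value on an array were dropped. Of the rest 34883 carried 1 gene symbol, 18 several and 10378 none. The values were quantile normalized over all arrays. Each chip set was fitted on its own with limma 3.58.1 (R 4.3.3, statmod 1.5.0) with an intensity trend, and p was adjusted by Benjamini-Hochberg over all probes at 5%. Drug was compared with same-time vehicle by a moderated F test over the 4 times and at each time, and drugs with each other. The functions were tested on simulated data.

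Every probe of the 8 genes was tested and is shown in the colour map of changes by drug and hour. The text gives the changes of only some of these probes, and some of the larger uncalled changes are not named in it. Of each other list, the genes whose brightest probe was called are named, at most the 4 with the largest change per list and drug. *Slc38a2* and *Gpt2* after tranylcypromine fell outside this limit and were added after their values were seen, so that every called gene of that list is named. For likeness the 3 genes with the highest Pearson r are named. Members and lists were chosen with earlier results of these data known.

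Arrays of 1 condition correlated at 0.947 or more (median 0.987), and no 2 held identical values. Nothing says that they came from separate experiments, so p measures the spread between these pools. Of 36 drug and time comparisons, 12 had a drug and a same-time vehicle array on 1 chip and 0 had this for every drug array. The number of arrays limits the precision. Alternatives were median scaling, the authors' normalized table, normexp with offset 50, bright probes, chip or replicate number as a block, shared spread, each drug's own vehicle, and leaving out arrays. The alternatives of leaving out the chip that stood apart (also with shared spread) or single 8 h arrays were chosen after seeing the data. Further drugs that the paper covers are not part of the comparisons made here.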

Additional observations from a re-analysis of the deposited data

Results flagged for a closer look

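In the first chip set *Cebpb* differed between drugs in 7 pairs by the test of the difference, with the largest differences of 1.11 (mianserin minus bupropion, 4 h), 0.85 (mianserin minus haloperidol, 4 h), 0.71 (mianserin minus clozapine, 8 h), 0.88 (tranylcypromine minus bupropion, 8 h), 0.86 (tranylcypromine minus risperidone, 8 h), 0.77 (tranylcypromine minus haloperidol, 1 h) and 0.91 (tranylcypromine minus clozapine, 8 h). *Chac1* differed in 2 pairs, by -0.63 (mianserin minus tranylcypromine, 8 h) and 0.88 (tranylcypromine minus bupropion, 8 h). All are log2 differences, and the calls that rest on tranylcypromine 8 h replicate 2 are named in the results.

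One vehicle array lay apart from its group. For *Cebpg* 3, a probe not above background, Tween 80 replicate 3 at 2 h read 7.73, and the other 5 vehicle arrays of that time read 7.88 to 7.96. This was 1 of 64 groups of 6 arrays tested, and chance alone marks about 1 group in 20.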

How the results depend on the processing

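Of the counts of members called, 164 values under the alternatives stayed on the same side, 15 were lower and 1 was higher. Of the changes of members and their differences between drugs, 295 stayed on the same side of the threshold, 89 lost their call and 0 reversed. Of the changes of listed genes, 367 kept their call and 89 lost it. Median scaling ended 17 of 21 calls of members and 16 of 23 of listed genes, and the authors' normalized table, normexp and bright probes alone ended 0 of either. Chip as a fixed block ended 3 of 21 and 4 of 23, and as a random block 1 and 0. Each drug's own vehicle alone ended 5 of 12 and 8 of 23. The fit with shared spread ended 2 of 21 and 8 of 23, and the replicate block 2 of 21 and 0 of 23. The *Cebpb* call over the 4 times held for mianserin (change at 4 h of 0.87 to 1.05) and tranylcypromine (change at 8 h of at least 0.34) under all 20 alternatives each. The number of members called for tranylcypromine was 1 under median scaling and 1 without the 8 h replicate 2 array, and that for risperidone was 0 under median scaling, 0 with its own vehicle alone and 0 with the replicate block. For diazepam it was 4 with 1 fit and shared spread (14.7% of all probes called), and 0 when the chip that stood apart was also left out. The effect of drug was called for 1 member under median scaling. The causes of these changes were not tested. Leaving out replicates in turn gave 1 to 3 members for tranylcypromine and 0 to 1 for risperidone, whose call was lost without each risperidone replicate, saline replicates 2 and 3 and each Tween 80 replicate. The replicate numbers did not pair the arrays, since deviations of same-numbered arrays correlated at -0.0037 on average (other numbers 0.0021, same chip 0.235) and 43 of 144 same-numbered pairs passed 0.1. No paired analysis was possible by replicate number in the second chip set because drug replicates are numbered 1 to 3 and saline replicates 4 to 6. Signals near background limit *Cebpa*, *Cebpd* 2, *Cebpg* 3, *Trib3* 2 and *Trib3* 3, and among the called listed genes *Atf3* and *Batf3*.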
